A study of Caenorhabditis elegans with 2 samples.

Results

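Peaks of the nuclear receptor NHR-71 whose summits lie in exons, away from promoters, were taken from a chromatin immunoprecipitation and sequencing (ChIP-seq) experiment on first-stage (L1) larvae of Caenorhabditis elegans. A peak was a member when its summit, the position of highest enrichment, lay on an autosome, in a coding or untranslated exon of a protein-coding gene, and in no promoter window. A promoter window covered the 1000 bp before and the 200 bp after the annotated start of any protein-coding gene. This rule took 287 of the 6651 autosomal peaks and of the 8540 peaks in the whole set that passed the authors' reproducibility threshold (irreproducible discovery rate, IDR). Of the other autosomal peaks, 2924 had summits in promoter windows, 1588 in introns and 1852 outside protein-coding genes. Exonic peaks made up 4.32% of the autosomal peaks (95% Wilson interval 3.85% to 4.83%), while exons outside promoter windows made up 23.5% of the autosomal bases.

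There was 1 group with 2 biological replicates of whole hermaphrodite larvae of strain OP480. Its genotype is unc-119(tm4063) III; wgIs480, where wgIs480 is a transgene that makes NHR-71 with GFP and FLAG at its C-terminal end, and unc-119(tm4063) is a mutant allele carried by every animal sampled. The larvae were synchronized by starvation after bleaching and collected 6 h after synchronization, and an antibody against GFP was used. The peaks therefore show the tagged protein made from the transgene, averaged over all cells of the animal. With 1 group and no control sample among the files used here, no test between conditions was possible. All values below are descriptions, and the intervals given cover the counting of peaks only.

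Nuclear hormone receptors are transcription factors with a zinc-finger DNA-binding domain and a ligand-binding domain, and the family is greatly expanded in nematodes. Such factors are usually mapped to promoters and enhancers, but an exon can also be regulatory DNA. A first exon of one transcript may lie next to an internal promoter, and the end of one gene may lie next to the start of the next in a compact genome. Many worm transcripts are trans-spliced, which means that the original 5′ end is replaced by a short leader RNA, so an annotated gene start can lie at some distance from the place where transcription begins.

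Some of the named peaks are shown by 30 bases at or next to their summits. They are not throughout the strongest of their exon classes. Peaks in egl-30, vps-25, Y71G12B.31 and eat-16, for example, are stronger than others shown for their class and are left out. The peaks shown differ in whether the sequence words counted further below occur there. Where a searched word was found, the 30 bases were placed around it, so some do not include the summit. Their centre lay 36 bp from the summit in gldi-8. It lay 0 bp from the summit in F26F12.3 and F01F1.3, which hold no word. These examples therefore do not measure how often words lie at summits. Each is read from the ce11 (WBcel235) genome on the strand of its host gene, 5′ to 3′, and capitals mark a searched word on either strand. The searched words were the nuclear receptor half-site AGGTCA, the related half-site AGTTCA, the further half-site GGGTCA, the site of GATA factors GATAAG, the GA repeat GAGAGA, the E-box CACGTG, and TGACTCA, which AP-1 type factors bind. To these were added the 5 words of 6 bases that led over their flanks at the other autosomal peaks, of which ACGCAG led, followed by the word GCGCGC, then by GACGCA, and by 2 others (AGCGCG being first of these and CGCGCG last). The first set lies in first exons, at chrIII:3456418-3456447 (plus strand), chrIII:12598582-12598611 (minus strand) and chrV:4507974-4508003 (plus strand).
C34C12.2: ttgcgcgatgcaAGCGCGCTccaccgcacg
gldi-8: cctctttcgtcaCGCGCTcatcgattttcg
unc-62: agttggctggcaGAGAGAcagccttggcaa
The next set lies in inner exons, at chrV:9128798-9128827 (plus strand), chrV:5843555-5843584 (minus strand) and chrV:10953677-10953706 (minus strand), and the middle one holds none of the words.
F21C10.3: tgaatgtgctcaCTTATCagaaattcaagc
F26F12.3: tcaaatgatctggtagagacaattggaatc
clec-221: ttcactcaatggGATAAGactatttctgct
The last set lies in last exons, at chrIII:6421212-6421241 (minus strand), chrII:6892024-6892053 (minus strand) and chrIII:5874444-5874473 (plus strand).
C05D11.8: tgacgccgtggaGACGCAGacagtgagggc
adal-1: atgcgacagttGACGCAGcgaaatcccaac
F01F1.3: gtgtatgatctttgggcatttggatggagt
Both 3′ untranslated peaks of this set, in C05D11.8 and adal-1, carry GACGCAG, in which GACGCA and ACGCAG overlap, while the coding peak in F01F1.3 carries none of the words. A peak in C17C3.1 (chrII:5572280-5572309, plus strand) carries the same run on the opposite strand.
C17C3.1: ccgtttttcttcCTGCGTCtcttccatcac

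Summits were spread unevenly over exons. Exons outside promoter windows held 14.8 IDR summits per Mb (exact Poisson interval 13.1 to 16.6), below the 62.6 per Mb of introns, the 95.5 per Mb outside protein-coding genes and the 159 per Mb of promoter windows. An exon was classed as first, inner or last where all transcripts over the summit gave the same class, as single where the transcript has 1 exon, and otherwise as mixed. First exons held 84 summits, inner exons 69, last exons 116 and single exons 2, and 16 summits were in mixed exons. First exons thus held 29.3% of the exonic summits and 4.38% of the exonic bases, and inner exons 24.0% of the summits (Wilson interval 19.5% to 29.3%) and 69.6% of the bases. Last exons held 40.4% of the summits and 21.3% of the bases. The density was 98.8 summits per Mb in first exons (78.8 to 122), 28.1 per Mb in last exons (23.3 to 33.8) and 5.12 per Mb in inner exons (3.98 to 6.47), and no pair of these intervals overlapped.

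Densities differed by the part of the exon as well as by its order. Of the 84 summits in first exons, 78 were in 5′ untranslated sequence and 6 in coding sequence. The density was 233 summits per Mb in 5′ untranslated first exons (184 to 291), above the promoter windows, and 12 per Mb in coding first exons (4.42 to 26.2). Of the 116 summits in last exons, 77 were in 3′ untranslated sequence, where the density was 42.6 per Mb (33.7 to 53.3), and 37 in coding sequence at 16.4 per Mb (11.6 to 22.7). Inner exons were mostly coding, with 58 of their 69 summits in coding sequence at 4.42 per Mb (3.36 to 5.72). Over all classes, 110 summits were in coding, 83 in 5′ untranslated and 80 in 3′ untranslated sequence. By chromosome the exonic density was 17.1 summits per Mb on I, 11.5 on II, 19.5 on III, 14.1 on IV and 12.9 on V, and the intervals of II (8.34 to 15.5) and III (lower bound 15.03) overlapped slightly.

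**Figure D1:**
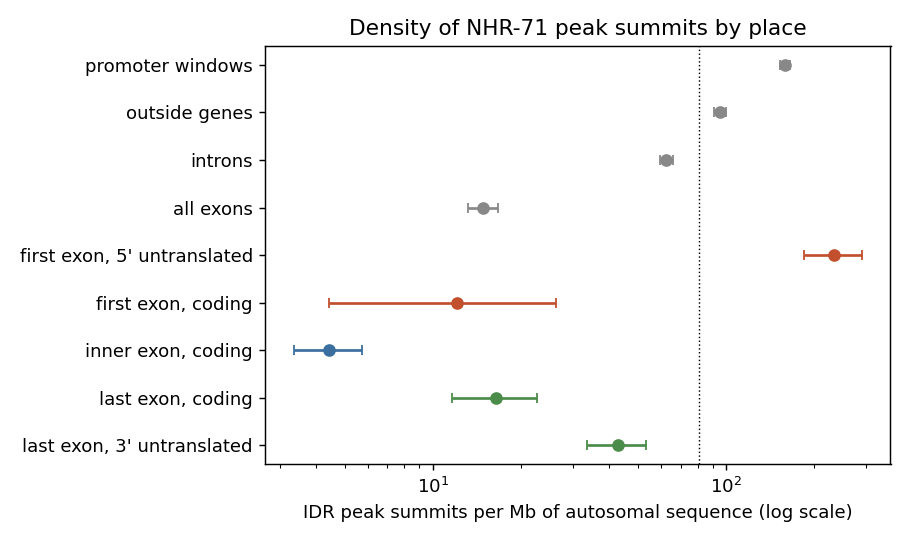
Autosomal IDR summits per Mb of each kind of sequence (log scale), with 95% exact Poisson intervals that cover the counting of peaks only. The dotted line is the density over all autosomal sequence, 80.6 per Mb. First exons in 5′ untranslated sequence lie at 233 per Mb and inner coding exons at 4.42 per Mb.

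Exonic peaks were weak members of the IDR set. Their median signal, the authors' own value for each peak on a scale not given in the sources used here, was 133 (quartiles 103 and 210, range 84.2 to 3126), against 251 in promoter windows, 176 in introns and 174 outside protein-coding genes. The same order of exons below the rest appeared in both replicate lists, each cut to its 8540 positions of highest signal. There the median of exonic peaks was 73.9 in replicate 1 and 69.9 in replicate 2, and that of promoter peaks 128 and 121. A signal over 500 was reached by 22 of the 287 exonic peaks (7.67%) and by 24.3% of promoter peaks. First exons were higher than the other classes, with a median of 170 (quartiles 121 and 335) against 129 in inner and 126 in last exons. In replicate 1 the medians were 100.02, 70.5 and 70.2 for first, inner and last exons, and in replicate 2 they were 85.4, 60.8 and 69.5, so that inner and last exons changed their order between replicates by a small difference.

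**Figure D2:**
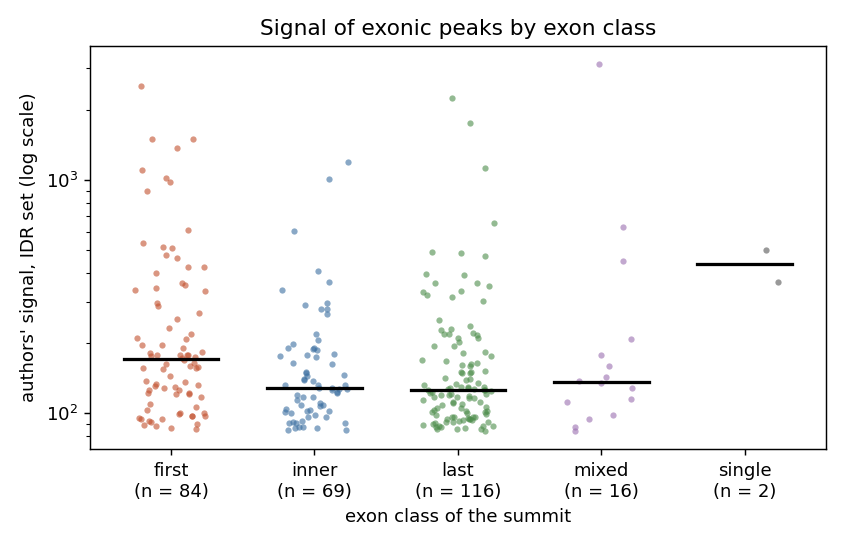
Signal of each of the 287 exonic peaks (points, log scale, the authors' values in the IDR set) by exon class, with the median as a bar. First exons have a median of 170, inner exons 129 and last exons 126, and each of these classes holds a few peaks above 1000.

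The exonic share rose steadily as the signal fell. The autosomal IDR peaks were put into 4 bands of equal size by signal, and the weaker autosomal positions of the pooled list, which the authors meant to include background, into 3 further bands. From the strongest band down, exons held 34, 44, 93 and 116 of the IDR summits, or 2.05%, 2.65%, 5.59% and 6.98%. Below the IDR set the share was 13.3%, 22.3% and 24.3%, so the weakest band lay close to the 23.5% of bases in such exons. The classes took different paths. Summits in inner exons numbered 4, 10, 25 and 30 in the IDR bands and 336, 613 and 788 below it, where they outnumbered the 279, 452 and 386 in last exons. First exons held between 13 and 30 summits in each IDR band and 65, 68 and 63 in the larger bands below, with no such rise.

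**Figure D3:**
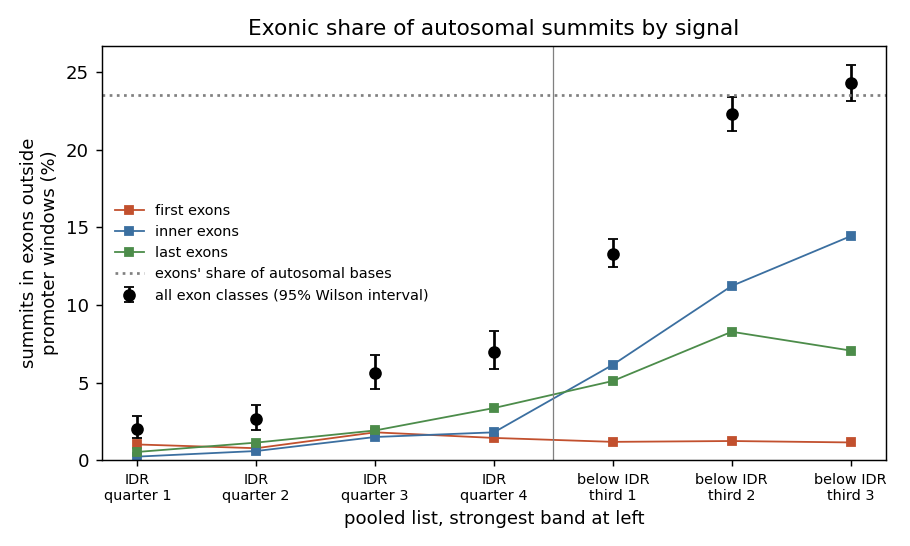
Share of autosomal summits in exons outside promoter windows (%) by band of signal, strongest at left, with 95% Wilson intervals for all exon classes together (black) and the shares of first, inner and last exons as coloured squares. The dotted line marks the 23.5% of autosomal bases in such exons; the share goes from 2.05% in the strongest to 24.3% in the weakest band, and the share of first exons stays nearly level.

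Many peaks in first exons lay near a transcript start. By the rule, any such start within 200 bp is not one that sets a gene start. For others, such as the peaks in rsbp-1 and ZK484.6 and the strongest in dmd-7, the nearest transcript start was the gene start. Over all first-exon peaks, the median distance to the nearest transcript start of a protein-coding gene was 166 bp. They lay a median of 1206.5 bp downstream of the start of their host gene, a distance that the rule keeps above 200 bp. Of 84 summits, 45 (53.6%, 43.0% to 63.8%) were within 200 bp of a transcript start, against 23.2% of the bases of the same exons. Start codons were near as well. The window from 1000 bp before to 200 bp after a start codon held 64 of the 84 (76.2%, 66.1% to 84.0%), against 55.6% of the bases. The host exons were long. Counted once per summit, so that an exon with several summits counts more than once, their median was 733 bp. It was 226 bp over the 9376 first exons with bases outside promoter windows, each counted once. Of the 84 summits, 34 (40.5%) lay in exons over 1000 bp, against 2.56% of those 9376 exons. A long exon offers more bases to a summit, and its part in this difference was not tested. When promoter windows were also drawn at every transcript start, 28 of the first-exon peaks remained and 61 of the inner.

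The strongest named member was in C34C12.2 on chromosome III, at chrIII:3456233-3456680, in the 5′ untranslated part of a first exon of 2829 bp. Its IDR signal was 2523 and its replicate signals were 1456 and 1079, and its summit was 182 bp before the start codon but 2073 bp from the nearest transcript start, the greatest such distance of any first-exon member. In egl-30, which encodes the Gq alpha subunit, a first-exon peak (chrI:1836446-1837348) had 1503, with 744 and 763 in the replicates. In vps-25, a subunit of the ESCRT-II complex of endosomal sorting, the first-exon peak had 1502, with 817 and 689, and its summit was 8 bp from a transcript start but 4501 bp from the start of the gene. All 3 were high in both replicates, far above the median of exonic peaks in either list.

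Several first-exon peaks lay near a transcript start well inside the gene, as that of vps-25 did. In tent-5, which encodes a terminal nucleotidyltransferase, the signal was 1098 (502 and 599 in replicates 1 and 2), 101 bp from a transcript start and 4577 bp from the gene start. In lit-1, the Nemo-like kinase of Wnt signalling, it was 539 (269 and 271), 121 bp from a transcript start and 17526 bp from the gene start. In unc-62, a homeodomain factor of the Meis type, it was 895 (428 and 462), in a first exon of 2945 bp. That summit was also well inside the gene, 10551 bp from its start. It was 808 bp from a transcript start, however, above the third quartile of 340 bp for first exons. The peak in rsbp-1, which encodes a binding protein of R7-type RGS proteins, had 1019 (487 and 529). It was 968 bp from both the gene start and the nearest transcript start. Neither rsbp-1 nor unc-62 thus shared the arrangement of vps-25, nor did the peak in C34C12.2. The peak in gldi-8 had 979 (544 and 434), 48 bp from a transcript start.

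Several long first exons held more than 1 summit. dmd-7, which encodes a factor with a DM domain, had 3 in an exon of 2360 bp, at signals of 479, 209 and 197. In nhr-66, itself a nuclear receptor gene, a first exon of 2590 bp had 3, at 296, 104 and 100. The strongest of these lay in no peak of replicate 1 and had 161 in replicate 2. The summit of 100, which lies 200 bp from it in an overlapping interval, had 135 in replicate 1, so replicate 1 was not without a peak there. F53F10.2 also had 3, at 509, 97.5 and 95.1, of which the first and the last shared 1 interval. On chromosome I, 4 summits in exons of the neighbouring genes T28F4.8, T28F4.5 and T28F4.4 lay between positions 7490321 and 7493148, the highest being the first-exon peak of T28F4.5 at 1368 (743 and 629). Of all 287 summits, 53 had another IDR summit within 500 bp and 29 lay in an interval with several summits, so not every summit is an independent site. For 30 of the 53 the neighbouring summit was the stronger.

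Peaks in inner exons were few and lay toward the exon edges. Of 69 summits, 44 (63.8%, 51.98% to 74.1%) were less than 50 bp inside an edge, against 41.3% of the bases of inner exons. The edge share was 23.8% against 27.7% of bases in first exons and 25.9% against 29.3% in last exons. Inner exons with a summit, counted once per summit, were about as long as inner exons at large, with medians of 166 and 161 bp. The median peak interval of 420 bp was longer than most of them, and 62 of the 69 intervals ran past exon sequence into introns or other sequence. Whether such a summit marks the exon or the adjoining intron cannot be told apart.

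The strongest peak in an inner exon lay in Y71G12B.31, in coding exon 4 of 10, which is 82 bp long. Its signal was 1192, with 639 in replicate 1 and 554 in replicate 2, and its summit was 7 bp from the exon edge. The peak in F21C10.3 had 1012 (495 and 518), in 5′ untranslated sequence 135 bp before the start codon. F26F12.3 had 602 (337 and 271) in an inner exon of 3008 bp. Both thus lay in 5′ untranslated sequence although the exon was an inner one. Other coding summits of inner exons were weaker than that of Y71G12B.31. Of those named through the gene lists, the summit in clec-221, a C-type lectin gene, had 290 (199 and 104), and that in nhr-107, a nuclear receptor gene, had 179 (88.8 and 89.4).

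Inner-exon summits were also near genes of small or long non-coding RNA. Within 200 bp of such a gene lay 8 of 69 (11.6%, 5.99% to 21.2%), against 0.521% of inner-exon bases, and 1 of 116 in last exons and 0 of 84 in first exons. The classes counted were tRNA, snoRNA, snRNA, miRNA, rRNA, lincRNA and antisense RNA. The genes below are outside the rule for named genes and were chosen after their values were seen. In cpz-1 and mpc-1 the neighbour was an snRNA gene, in ncx-7, C08D8.1 and ltd-1 an snoRNA gene, in Y56A3A.7 a miRNA gene, in ZC334.12 the lincRNA gene linc-124 and in set-18 a tRNA gene. Their signals ran from 86.2 in set-18 to 279 in cpz-1. The last-exon case, W02G9.3, had its summit inside a tRNA gene at a signal of 181. Of the 8 inner-exon summits, 6 were secondary, 199 to 212 bp from a stronger IDR summit of signal 347 to 1113. These were the summits in cpz-1, mpc-1, ncx-7, C08D8.1, ltd-1 and set-18, and they were 6 of the 8 inner-exon members with a stronger summit within 500 bp. Without such members, 2 of 61 inner-exon summits were near a non-coding RNA gene. Whether a non-coding RNA gene or the exon carried the enrichment was not tested.

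**Figure D4:**
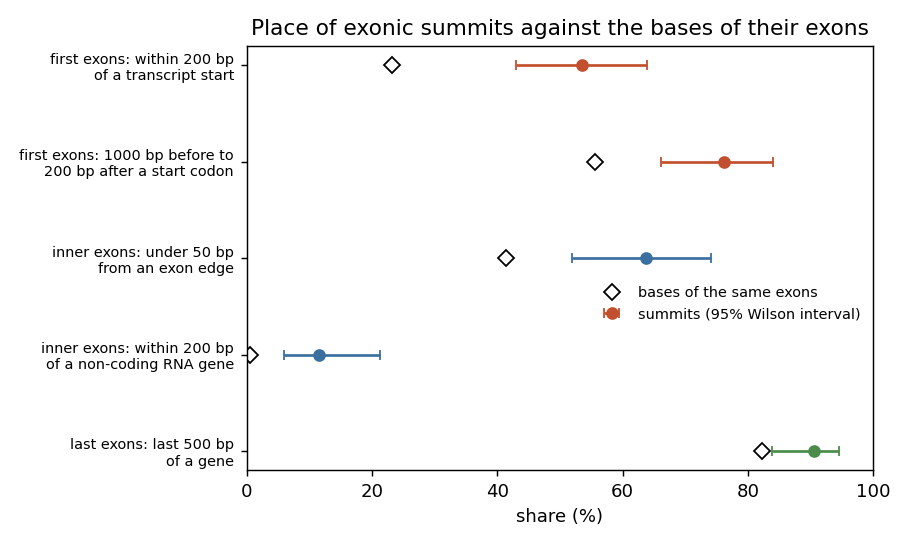
Share of exonic summits (%, filled points with 95% Wilson intervals) near a transcript start, a start codon, an exon edge, a non-coding RNA gene or a gene end, beside the share of the bases of the same exons (open diamonds). The point lies above the diamond in each row, by most for the 53.6% of first-exon summits within 200 bp of a transcript start against 23.2% of bases.

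Peaks in last exons were the most numerous class and lay close to gene ends, as their exons do. The last 500 bp of a gene held 105 of 116 (90.5%, 83.8% to 94.6%), against 82.3% of the bases of last exons, and the median distance to the host gene's end was 181 bp. The exons, counted once per summit, were longer than last exons at large, with medians of 438 and 291 bp. C05D11.8 had the strongest, at chrIII:6420929-6421588, with a signal of 2252 (1281 in replicate 1 and 990 in replicate 2), in the 3′ untranslated part of an exon of 1822 bp. The same exon held weaker summits of 127 and 94.0. In eat-16, which encodes an RGS protein that acts on Gq signalling, the peak had 1756 (972 and 792). In adal-1, an adenosine deaminase-like gene, the 3′ untranslated peak had 1128 (601 and 536). The strongest coding summit of a last exon, in F01F1.3, had 484 (261 and 226). Signals of 500 or below were the rule, and 4 of the 116 last-exon peaks were above that level.

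Signals on both sides of the promoter window boundary overlapped. Within 100 bp outside a window edge lay 22 members, with a median signal of 165 (86.2 to 1368). Within 100 bp inside an edge lay 48 exonic summits, with a median of 153 (86.9 to 1065). Of the 287 member intervals, 33 reached into a promoter window, and 18 of these were in first exons.

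Agreement between the replicate lists, each cut to 8540 positions, followed signal. Of the 287 summits, 199 (69.3%, 63.8% to 74.4%) lay inside a peak of both replicate lists when each was cut to 8540 positions, 47 of replicate 1 alone, 39 of replicate 2 alone and 2 of neither. The share in both was 77.4% for first, 66.7% for inner and 64.7% for last exons, and 84.4% for all other autosomal peaks. In the band of lowest signal it was 29.3% for exonic and 42.8% for other peaks. In the next bands up it was 94.6% and 95.5%, then 97.7% and 98.02%, and in the strongest band 34 of 34 exonic peaks were in both, against 99.6% of the others. Most of the disagreement was thus among the 116 weakest members. The 282 members that lay in a peak of both full lists had a median log2 ratio of replicate 2 over replicate 1 of -0.21 (SD 0.64 over members), against -0.12 for other autosomal peaks. The rank correlation of the replicate signals over those members was 0.691 (Spearman's rho, across peaks that share libraries and that were kept for their agreement). The most extreme log2 ratios, 3.18 and -3.13, were of summits 214 and 219 bp from a stronger IDR summit (signals 729 and 765). The part of such neighbours in the spread was not tested.

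**Figure D5:**
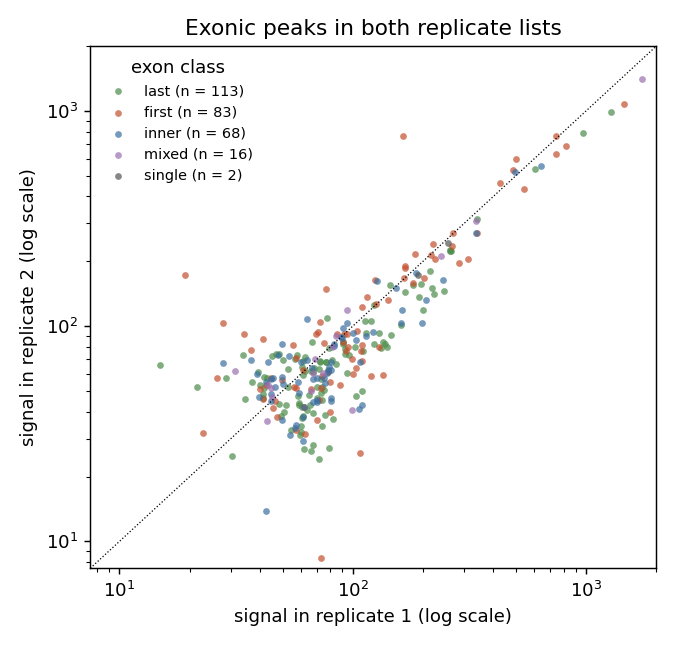
Signal in replicate 2 against replicate 1 for the 282 exonic peaks found in both full replicate lists (log scales, coloured by exon class), with the line of equal signal. Peaks strong in the IDR set lie near the line and the weak ones scatter more widely about it, the farthest on either side being summits beside a stronger one. A replicate peak that covers 2 summits gives its signal to both. The weaker egl-30 summit (IDR signal 132) thus plots at 163 in replicate 1 and 763 in replicate 2, far from the line.

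Sequence at the summits was richer in G and C than beside them. The host exons had a median length of 391 bp, so the flanks often lay outside the exon, and the contrast with them is partly one of exon with other sequence. The 100 bp centred on exonic summits had 41.9% ± 8.11 GC (SD over 287 peaks), against 36.2% and 36.6% in windows 300 bp upstream and downstream and 41.3% over all 100 bp tiles of such exons. First-exon summits had 44.98% against 39.2% for tiles of first exons. Inner exons had 41.9% against 42.6% for their tiles, and last exons 39.1% against 37.7%. Summits were thus above the same kind of exon in first and last exons, by most in first exons, and slightly below it in inner exons.

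Words were counted on both strands of the same 100 bp. The nuclear receptor half-site AGGTCA was in 2.44% of exonic windows, 3.14% and 1.74% of the upstream and downstream flanks, 3.61% of other autosomal peaks and 1.91% of exon tiles. AGTTCA was in 3.83%, against 7.18% of exon tiles, and GGGTCA in 1.39% against 1.42%. None of these half-sites was thus more frequent at exonic summits than in both flanks. GAGAGA was in 53 windows (18.5%, 14.4% to 23.4%), 9.41% and 6.62% of flanks, 26.3% of other autosomal peaks and 6.00% of exon tiles. By class it was in 28.6% of first-exon, 11.6% of inner-exon and 12.9% of last-exon windows. CACGTG was in 5.23% against 2.75% of tiles, GATAAG in 5.92% against 4.36%, and TGACTCA in 1.05% against 0.83%.

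Words found at other autosomal peaks were then counted at the exonic ones, which had not been used to choose them. ACGCAG, the leading word there, was in 27 exonic windows (9.41%, 6.55% to 13.3%), against 2.79% and 1.74% of the flanks and 1.86% of exon tiles, and in 13.4% of the other peaks. GCGCGC was in 2.79% of exonic windows and 0.20% of tiles, and GACGCA, which can overlap ACGCAG by 5 bases, in 7.32% and 1.97%. AGCGCG was in 3.83% against 0.646% of tiles, and CGCGCG in 1.05% against 0.215%. At least 1 of the 3 leading words was in 38 exonic windows (13.2%), 4.53% and 3.48% of flanks and 3.39% of tiles. The share was 22.6% in first-exon (14.99% to 32.6%), 11.6% in inner-exon (5.99% to 21.2%) and 6.90% in last-exon windows (3.54% to 13.0%). It was 17.5% for exonic peaks above the median signal and 9.03% for the rest, and for GAGAGA these shares were 25.9% and 11.1%. A match describes the letters only and is no binding site by itself.

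Host genes were mostly hit once. Exons of 267 of the 17242 autosomal protein-coding genes held a member, or 1.55%. With each summit given to 1 gene there were 261 hosts, of which 239 had 1 summit, 18 had 2 and 4 had 3 (F53F10.2, dmd-7, C05D11.8 and nhr-66), and 7 summits lay in exons of several genes. Of the 16 gene lists examined, 12 had no member, among them ribosomal proteins (0 of 76), histones (0 of 75), cuticle collagens (0 of 145), F-box proteins (0 of 305) and neuropeptides and insulins (0 of 106). The others with none were translation factors (0 of 36), aminoacyl-tRNA synthetases (0 of 32), vitellogenins (0 of 1), body wall muscle genes (0 of 34), homeobox factors (0 of 59), basement membrane and matrix genes (0 of 10) and ubiquitin and proteasome genes (0 of 53). At 1.55%, lists of this size would hold few hosts, so a count of 0 says little for the shorter ones. The exon bases outside promoter windows were not counted for each list. Whether the longer lists with a count of 0 fall short of what their sequence offers was therefore not tested. The lists were drawn by gene symbol, and that of homeobox factors leaves out unc-62, a homeodomain factor gene that held members.

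Members of the other lists were hit in different exons. Of 247 nuclear receptor genes, 9 (3.64%) held 11 summits, with nhr-66 and nhr-107 the highest. Of 237 C-type lectin genes, 3 (1.27%) did, with clec-221 at 290 and clec-264 at 127, both in coding inner exons. Of 54 chaperone genes, dnj-24 (92.9) was the 1 host. The citric acid cycle oxidizes acetyl-CoA, and the list drawn for it also takes in pyruvate carboxylase, which is outside the cycle itself. Of the 22 genes in that list, 4 (18.2%) held a summit. Those were cts-1, citrate synthase, at 195 (113 and 92.8) and idh-1, an isocitrate dehydrogenase, at 116 (67.7 and 39.5), both in 3′ untranslated last exons. The other 2, named after their values were seen, were aco-2, an aconitase, at 91.6 in a 5′ untranslated first exon, and pyc-1, pyruvate carboxylase, at 85.2 in a coding inner exon. Of the 4, 3 were secondary summits beside a stronger one and not isolated peaks. The summit in cts-1 lay 203 bp from one of 364, that in idh-1 200 bp from one of 351 and that in aco-2 202 bp from one of 216. Without them pyc-1 is the 1 host of the 22, at a signal near the lowest of the set.

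The remaining peaks named by the rule lay in other arrangements. C17C3.1, in an exon shared with C17C3.15 and mixed in class, had 629 (336 and 309), and lelo-2, also mixed in class, had 451 (238 and 212). Of the single-exon cases, ZK112.4 had 503 (257 and 244) in coding sequence, and fkh-7, a forkhead factor gene, had 367 (191 and 173) in a transcript annotated without coding sequence. Further first-exon peaks were in ZK484.6 at 612 (340 and 270) and in M01H9.3 at 514 (313 and 204), and T28F4.8 had 657 (339 and 314) in a last exon. All 7 had the higher value in replicate 1, as did the members at large by their median ratio.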

How the data were processed

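ChIP-seq of GFP-tagged NHR-71 was deposited as peak lists in the narrowPeak format, 1 per replicate and 1 pooled (30000 positions each, background included), with the IDR set made from them, per the submitters' file list. Per peak the authors deposited a signal and a −log10 q-value; the latter is 1 constant value in the IDR set and was not used. Not given in the sources used here were the aligner, peak caller, IDR threshold and signal scale. Lists on ce10 and the control library were not used here. No list holds reads, so depth is unknown, and the 2 replicates limit precision. The labels call the replicates biological.

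Summits of the ce11 lists were placed with Ensembl release 115 (WBcel235), the coordinates are 1-based, and sequence came from the RefSeq copy of that assembly. Tables were made with pandas 2.3.3, NumPy 2.4.6 and SciPy 1.17.1 under Python 3.11.15, and figures with Matplotlib 3.10.9. Placement was tested on simulated data, where 16 of 16 planted summits were placed correctly. A summit counted as found in a replicate when a peak of that list covered it, and where several did, the peak with the nearest summit gave the signal. Base shares count positions where all covering exons give the same class.

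Named genes are the hosts of the 20 strongest members, of the 3 strongest in each exon class and part, of 3 or more members, and the 2 strongest in each list. The 5 members in chemoreceptor genes are not reported by name here; the strongest member, of signal 3126, is among them. The sequences shown include no peak of chromosome I, although many of the strongest named members lie there. The members, lists and 7 fixed words were chosen with earlier results of these data known, and the further words of 6 bases were taken from the other autosomal peaks after the data had been seen. Alternatives varied the promoter window, the signal threshold, the replicate list, the place in the exon, the transcripts and the meaning of found. Windows at start codons and whole intervals outside promoter windows were added after seeing the data.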

Additional observations from a re-analysis of the deposited data

How the results depend on the processing

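The exonic share of autosomal peaks was 4.32%. It became 4.81% with promoter windows from 500 bp and 3.62% from 2000 bp upstream, 3.13% with windows at all transcript starts, 2.98% with windows at start codons too, 3.82% with whole intervals outside windows, 2.42% among the IDR peaks above the median signal, 15.4% over the whole pooled list and 2.87% for summits at least 50 bp inside the exon. The inner-exon share of 24.0% became, in the same order, 21.6%, 24.9%, 29.3%, 29.8%, 24.4%, 17.1%, 50.8% and 13.1%. It was 23.8% with 1 summit per interval, 23.1% with protein_coding transcripts only and 26.8% by the longest covering transcript. The median signal of 133 became 348 above the median signal, 27.1 over the pooled list, 141 for summits at least 50 bp inside and 129 with start-codon windows. Under the other choices that used the IDR set it lay between 131 and 136. With 1 replicate left out, the shares ran from 4.07% to 4.75% and from 25.6% to 25.7%, and the median, on the scale of a single list, from 69.9 to 73.9. The share found in both replicates was 64.5% for summits within 100 bp, 54.7% within 50 bp and 98.3% in the full lists. The first-exon count depends most on the windows: 84 became 28 with all transcript starts and 20 with start codons. No control or second factor was analysed, so no value here separates binding of NHR-71 from enrichment shared by other immunoprecipitations.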
